A study of Mus musculus with 18 samples.

Results

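Epithelial junction genes were followed through the 18 libraries of a reprogramming series: 10 of the 36655 gene symbols in the deposited table, chosen by symbol. They were desmoplakin (Dsp), Perp and plakoglobin (Jup) of the desmosome, occludin (Ocln), claudin-3 (Cldn3), tricellulin (Marveld2) and zonula occludens-1 (Tjp1) of the tight junction, E-cadherin (Cdh1) of the adherens junction, and the epithelial surface proteins Epcam and Spint2. Each symbol had 1 row. The cells came from C57BL/6 mice grown wholly from induced pluripotent stem (iPS) cells and carrying oct4, sox2, klf4 and c-myc under doxycycline control, so the uninduced cells carried the factors too. Libraries titled D were from cells cultured with doxycycline for 2 or 4 days. Libraries titled N were the culture controls of the same days, and the libraries numbered 0 were uncultured. Myeloid progenitors (MP) and the haematopoietic stem cells of short-term (ST-HSC) and long-term (LT-HSC) type gave 1 library in each of these 5 conditions. Fibroblasts gave 1 library each at day 0, 2D and 4D, with no N culture. For the 6 N libraries the labels' treatment entry says that doxycycline was given, which goes against their titles and the series design; the titles were followed.

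Cell junctions hold epithelial sheets together. Desmosomes tie the keratin cytoskeleton of neighbouring cells together through desmoplakin and plakoglobin, adherens junctions join cells through E-cadherin, and tight junctions seal the space between cells with claudins, occludin and the scaffold protein zonula occludens-1. In the reprogramming of fibroblasts, gain of epithelial genes, a mesenchymal-to-epithelial transition, is known as an early step. Blood cells form no such sheets, although some of these genes are also expressed in blood stem cells.

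Values are fragments per transcript length and sequenced fragments (FPKM), so levels of different genes can be set side by side per length. Every blood library was amplified from 25 hand-picked cells, while fibroblast libraries were made from bulk RNA by another method. Total FPKM ran from 677649 to 767866 in blood libraries and from 524225 to 572069 in fibroblasts, and read depth is unknown. Some values of 0 may be estimates that failed, so such genes are called listed at 0. Sox2 checked the labels, at 15.6 to 61.3 FPKM in D blood libraries and at most 1.496 in N ones (log2 difference 4.64 ± 0.45, limma adjusted p = 4.09e-04). Pou5f1 was at 0 to 2.34 FPKM in D and 0 in every N library, while Klf4 (0.704 to 11.2 in D, 0 to 22.6 in N) and Myc (45.5 to 189 in D, 102 to 319 in N) overlapped. The 8 pan-leukocyte markers, among them Ptprc, summed to 6.92 to 2985 FPKM in D and 2989 to 4961 in N libraries. In D they were at 2985 and 2358 FPKM in ST-HSC at days 2 and 4, but at 313 and 27.6 in LT-HSC and at 308 and 6.92 in MP. Granulocyte and monocyte markers stood at 41556 FPKM in uncultured LT-HSC, close to the 58534 of uncultured MP and above the 1650 of uncultured ST-HSC, so the uncultured LT-HSC library carried myeloid transcripts that its label does not name.

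The comparison of D with N asks what factor induction changed beyond culture. Of the 10 junction genes, 6 rose (Dsp, Perp, Ocln, Cldn3, Epcam and Tjp1) and 0 fell in limma at an adjusted p below 0.05, fitted to the 6 pairs of cell type and day. Jup, Cdh1, Marveld2 and Spint2 did not pass. Over all 12254 genes tested, 8.97% were called, 4.53% higher and 4.44% lower. Since the genes were chosen with earlier results known, the count of 6 describes them and is no independent support. Their median log2 difference in FPKM + 1 was 2.03, beside 0.02 over all genes tested. The filter, a mean of at least 1 FPKM over the 12 cultured libraries, let all 10 through, but only 6 of 10 would have passed on the N libraries alone. Dsp, Ocln, Cldn3 and Cdh1 passed through their D libraries. The calls among them, also where they held without each pair, thus describe the values and are no independent support. The fitted size of a difference from a group at 0 depends on the 1 added before the log. With 1 library per condition, cell types and days stand in for replicates, and the adjusted p-values rest on how much they vary. In these pooled cells, more cells expressing a gene and more RNA per cell cannot be told apart.

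**Figure D1:**
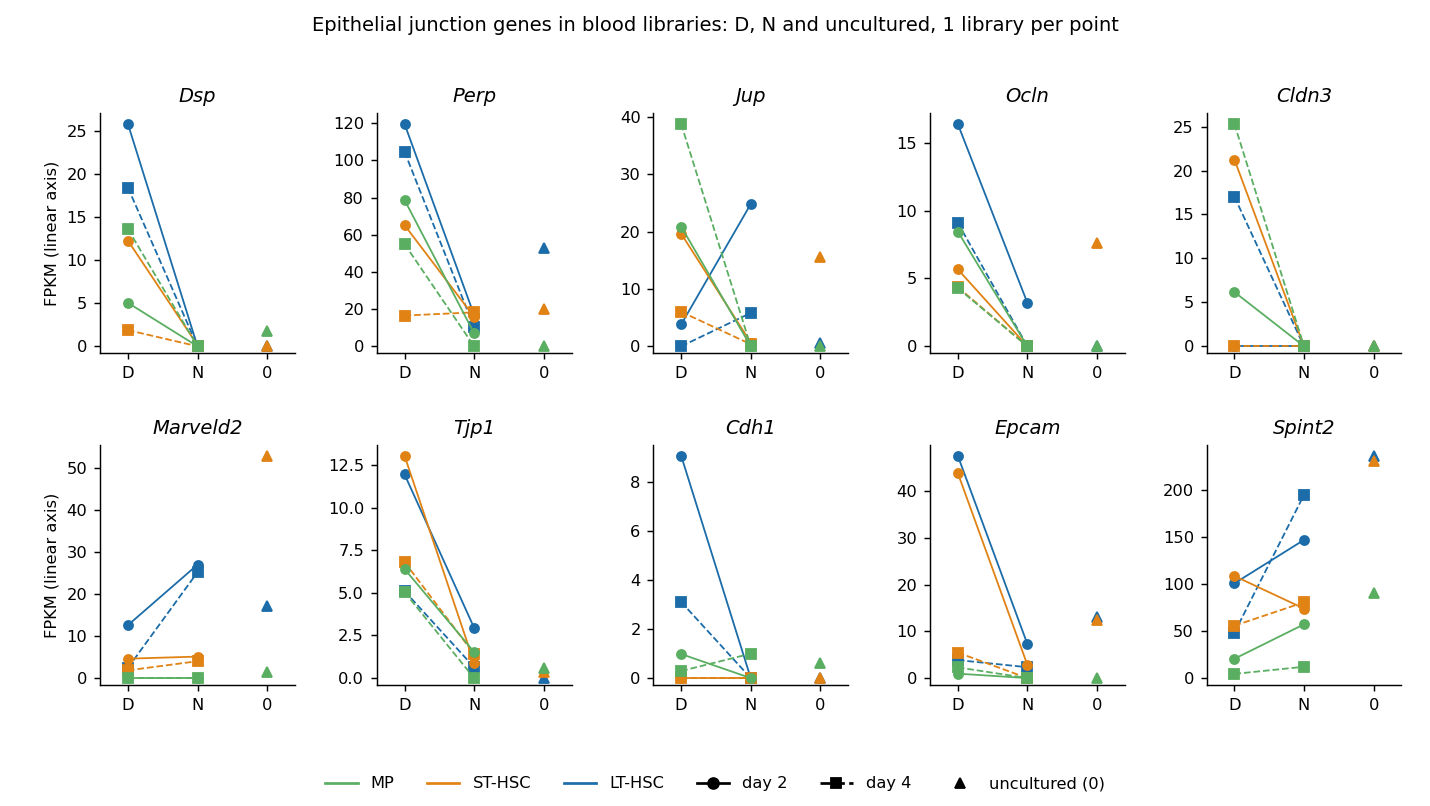
FPKM (linear axis, own range per panel) of the 10 genes in blood libraries, 1 library per point, with D, N and uncultured (0) libraries from left to right and lines joining D and N of the same cell type and day. Every D point lies above every N point for Dsp, Ocln and Tjp1, while Jup lines of LT-HSC slope against those of the other cell types.

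Among the desmosome genes, Dsp (ENSMUSG00000054889) links the desmosomal plaque to keratin filaments. At days 2 and 4 it stood at 25.8 and 18.4 FPKM in D LT-HSC, 12.3 and 1.87 in D ST-HSC and 5.04 and 13.6 in D MP, against 0.139 in N ST-HSC at day 2 and 0 in the other 5 N libraries. Every D library lay above every N library, as for 2.97% of all genes tested. A ceiling of 0.2 FPKM in all N libraries, which Dsp and Cldn3 kept to, was met by 2.41%. Any gene under that ceiling passed the filter only through its D libraries, so this share describes the values and is no independent support. The fitted log2 difference of Dsp was 3.42 ± 0.49 (SE; limma adjusted p = 0.00304), and the call held without each of the 6 pairs in turn. Among uncultured cells Dsp was at 1.72 FPKM in MP and listed at 0 in both stem cell types.

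Perp (ENSMUSG00000019851), a desmosomal membrane protein and p53 target, ranged from 16.5 to 119.6 FPKM in D and 0 to 18.3 in N libraries. It stood at 119.6 and 104.7 FPKM in D LT-HSC at days 2 and 4 and at 65.2 and 16.5 in D ST-HSC, against 16.8 and 10.1 in N LT-HSC and 15.8 and 18.3 in N ST-HSC. In MP it was at 78.7 and 55.0 FPKM in D, against 6.97 and 0 in N. The D and N ranges overlapped through ST-HSC at day 4, where D was 0.904 times N. The fit gave 2.83 ± 0.61 (limma adjusted p = 0.0204). That call was lost without the LT-HSC day 2, LT-HSC day 4 or MP day 2 pair (limma adjusted p = 0.0555, 0.0586 and 0.0714).

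Jup (ENSMUSG00000001552), the plaque protein plakoglobin shared by desmosomes and adherens junctions, went different ways in different cell types. It stood at 3.803 and 0 FPKM in D LT-HSC at days 2 and 4, against 24.8 and 5.81 in N LT-HSC. ST-HSC had 19.6 and 6.02 FPKM in D, against 0.656 and 0.354 in N, and MP had 20.9 and 38.8 in D, against 0 in both N libraries. Jup was thus higher in D in 4 of 6 pairs and lower in 2, and the pooled difference of 1.76 ± 1.08 did not pass (limma adjusted p = 0.371). Whether MP differed from both stem cell types in this response was tested as an interaction (log2 4.68 ± 1.83, limma adjusted p = 0.546); in that fit 0 of 12254 genes passed, with 1018 at an unadjusted p under 0.05. Perp gave 2.60 ± 1.04 there (limma adjusted p = 0.557), and these were the only members of the 10 with an unadjusted p under 0.05.

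Of the tight junction genes, Ocln (ENSMUSG00000021638), a membrane protein of the sealing strands, stood at 16.4 and 9.10 FPKM in D LT-HSC at days 2 and 4, 5.68 and 4.36 in D ST-HSC and 8.46 and 4.29 in D MP, against 3.20 in N LT-HSC at day 2 and 0 in the other 5 N libraries. The D and N ranges did not overlap, and the fitted difference was 2.70 ± 0.38 (limma adjusted p = 0.00278), a call that held without each pair. Uncultured ST-HSC had 7.62 FPKM, inside the D range, and the other 2 uncultured libraries were at 0.

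Tjp1 (ENSMUSG00000030516), the scaffold that anchors claudins and occludin to actin, stood at 11.9 and 5.10 FPKM in D LT-HSC at days 2 and 4, 13.0 and 6.80 in D ST-HSC and 6.40 and 5.04 in D MP, against 2.95 and 0.633 in N LT-HSC, 1.41 or less in N ST-HSC and 1.53 or less in N MP. Again the ranges did not overlap. In the 5 pairs with N above 0, D was 4.05 to 14.5 times N. The fit gave 2.06 ± 0.37 (limma adjusted p = 0.00962), and the call held without each pair.

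Cldn3 (ENSMUSG00000070473), a claudin of sealing tight junctions, was listed at 0 in every N and every uncultured library. It was at 21.2 FPKM in D ST-HSC at day 2, 6.18 in D MP at day 2, 17.0 in D LT-HSC at day 4 and 25.3 in D MP at day 4, and at 0 in the other 2 D libraries. The fitted difference of 2.70 ± 0.74 lay at the threshold (limma adjusted p = 0.0499). The call was lost in 15 of 19 alternative fits, among them those without the ST-HSC day 2, MP day 2, LT-HSC day 4 or MP day 4 pair (limma adjusted p = 0.113 to 0.143).

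Marveld2 (ENSMUSG00000021636), the protein of tricellular junctions, is a relative of Ocln in the MARVEL-domain family and its next protein-coding neighbour on chromosome 13 in RefSeq gene order. It stood at 12.6 and 2.44 FPKM in D LT-HSC at days 2 and 4, against 27.03 and 25.2 in N LT-HSC, and at 4.63 and 1.84 in D ST-HSC, against 5.13 and 4.03 in N ST-HSC. It was listed at 0 in all 4 cultured MP libraries. Lower in D in 4 of 4 pairs with a value above 0, its difference of -0.82 ± 0.47 did not pass (limma adjusted p = 0.332). None of the 10 genes was lower in D in all 6 pairs, as 6.68% of all genes tested were.

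Among the surface proteins, Epcam (ENSMUSG00000045394), an epithelial adhesion molecule, stood at 47.5 and 3.85 FPKM in D LT-HSC at days 2 and 4, 43.8 and 5.46 in D ST-HSC and 0.953 and 2.29 in D MP, against 7.29 and 2.33 in N LT-HSC, 2.83 and 0 in N ST-HSC and 0 in both N MP libraries. D was above N in 6 of 6 pairs, as for 7.21% of all genes tested, but the ranges overlapped. The difference was 2.00 ± 0.47 (limma adjusted p = 0.0284). That call was lost without either ST-HSC pair, without the pair of LT-HSC at day 2 and without that of MP at day 4 (limma adjusted p = 0.0629 to 0.0871) and with no replicate block (limma adjusted p = 0.165).

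Cdh1 (ENSMUSG00000000303), the adherens junction cadherin and a classical epithelial marker, was above 1 FPKM only in D LT-HSC among the blood libraries. It stood at 9.05 and 3.10 FPKM in D LT-HSC at days 2 and 4, against 0 in both N libraries, and at 0.979 and 0.288 in D MP, against 0 and 0.995 in N MP. In ST-HSC it was listed at 0 in all libraries, cultured or not. The difference of 0.95 ± 0.59 did not pass (limma adjusted p = 0.375).

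Spint2 (ENSMUSG00000074227), an inhibitor of membrane-bound serine proteases, had the highest level of the 10 genes in the N and uncultured libraries. It stood at 101 and 48.4 FPKM in D LT-HSC at days 2 and 4, against 147 and 195 in N LT-HSC, and at 20.6 and 4.48 in D MP, against 57.3 and 12.1 in N MP. ST-HSC had 109 FPKM in D and 74.1 in N at day 2, and 55.8 in D and 80.8 in N at day 4. Lower in D in 5 of 6 pairs, its difference of -0.87 ± 0.32 did not pass (limma adjusted p = 0.128). Without the ST-HSC day 2 pair it was -1.15 (limma adjusted p = 0.0395).

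Leukocyte markers were lower in D than in N of LT-HSC, at 313 and 27.6 FPKM against 4961 and 4132 at days 2 and 4. In MP they summed to 308 and 6.92 FPKM in D, against 3092 and 4623 in N. They differed less in ST-HSC, with 2985 FPKM in D and 2989 in N at day 2, and 2358 in D and 4383 in N at day 4. Their part in the results was not tested. In the ST-HSC pairs alone the log2 differences were 2.53 for Dsp, 2.58 for Ocln, 2.29 for Tjp1, 3.12 for Epcam, 2.24 for Cldn3 and 0.92 for Perp, and none of the genes passed in those 4 libraries (limma adjusted p = 0.187 to 0.656 for these 6). Without ST-HSC, Dsp, Perp and Ocln kept their calls (3.87, 3.78 and 2.76), Tjp1 was at 1.94 (limma adjusted p = 0.0513), Cldn3 and Epcam were not called (limma adjusted p = 0.0754 and 0.155), and Spint2 was called lower (-1.30, limma adjusted p = 0.0488). Markers of skin keratinocytes summed to 0 to 3.44 FPKM in D and 0.346 to 7.05 in N libraries, with Krt5, Krt14, Trp63 and Dsg3 listed at 0 in every blood library. Fibroblast markers summed to 0 to 33.4 FPKM in D and 7.55 to 25.4 in N libraries, against 606 to 11199 in the fibroblast libraries.

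**Figure D2:**
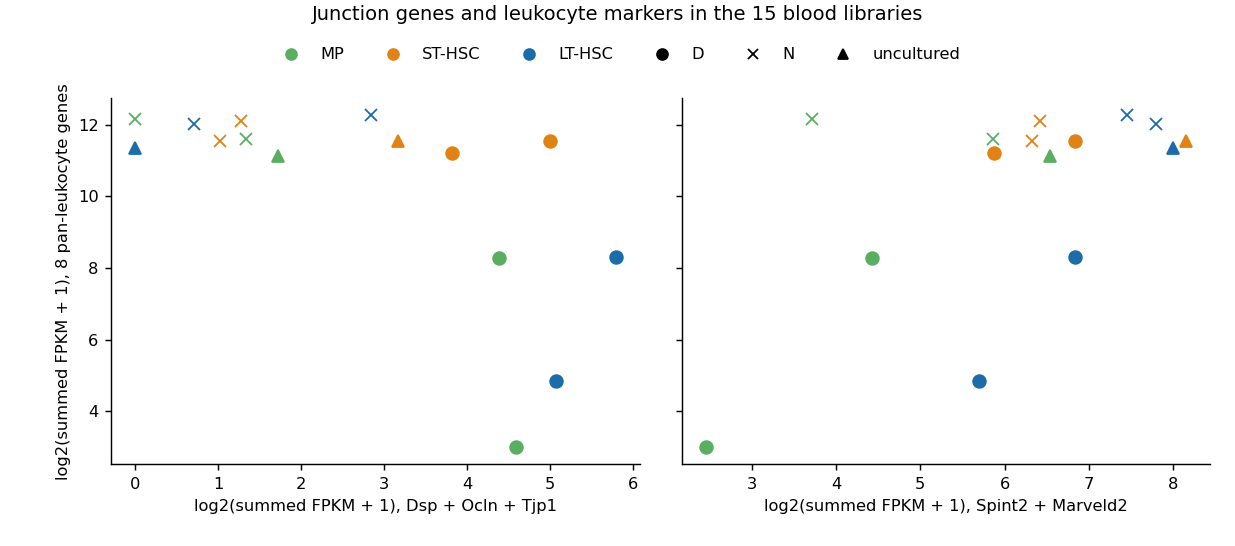
Summed FPKM of 8 pan-leukocyte markers (vertical, log2 of the sum + 1) against summed FPKM of Dsp, Ocln and Tjp1 (left) or of Spint2 and Marveld2 (right, both log2 of the sum + 1) in the 15 blood libraries, coloured by cell type. The 2 ST-HSC D circles keep leukocyte sums of 2985 and 2358 FPKM, while the lowest D circle, MP at day 4, is at 6.92.

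No difference between D and N was shown to change from day 2 to day 4. In that interaction fit 0 of 12254 genes passed limma, with 511 at an unadjusted p under 0.05. The interaction of the 10 genes ran from -0.97 (Cdh1) to 0.52 (Cldn3), with limma adjusted p of 0.989 to 0.999. Within D, Epcam was at 47.5 and 43.8 FPKM in LT-HSC and ST-HSC at day 2 but at 3.85 and 5.46 at day 4, while MP had 0.953 FPKM at day 2 and 2.29 at day 4.

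The 250 bases before the RefSeq start sites (build GRCm38.p6, while the FPKM were made on mm9) were read for 8 of the 10 genes, since 6 of the 10 rose together. A pair of motifs was searched on both strands: CACCTG, an E-box bound by the Snail and Zeb repressors of epithelial genes, and GGGCGTG. The latter is a site of the KLF and SP type, taken because klf4 is among the factors under doxycycline control. Klf4 RNA was not called in D against N (1.26, limma adjusted p = 0.280). Against uncultured cells it was called lower in D (-3.73, limma adjusted p = 0.0218). The E-box was found in Ocln, Epcam and Spint2, in 3 of the 10 windows of the 8 genes, and in 17.2% of all 32851 promoter windows of this length. The windows of the 8 genes held 50.4 to 72.4% G and C, beside a median of 52.4% over all windows. The shares were not matched for this. GGGCGTG was found in the window of the first Ocln start and in both Marveld2 windows, which overlap and share the same site. It was found in 7.55% of all windows. Dsp, Tjp1, Cldn3 and Jup held neither set of letters in this window. A match is a description of the letters and not a site. Shown 5′ to 3′ with the motifs in capitals are Dsp at chr13:38151044-38151293 (plus strand), Ocln at chr13:100552499-100552748 (minus strand, the second of its 2 start sites), Epcam at chr17:87635729-87635978 (plus strand), Spint2 at chr7:29281978-29282227 (minus strand) and Marveld2 at chr13:100616972-100617221 (minus strand, the first of its 2 start sites), chosen as called genes without and with the E-box and as genes that were not called.
Dsp: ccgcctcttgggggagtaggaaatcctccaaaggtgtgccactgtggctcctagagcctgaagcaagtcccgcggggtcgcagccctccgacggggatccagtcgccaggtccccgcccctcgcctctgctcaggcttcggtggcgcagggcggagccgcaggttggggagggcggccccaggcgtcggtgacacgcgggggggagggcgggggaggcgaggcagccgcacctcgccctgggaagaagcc
Ocln: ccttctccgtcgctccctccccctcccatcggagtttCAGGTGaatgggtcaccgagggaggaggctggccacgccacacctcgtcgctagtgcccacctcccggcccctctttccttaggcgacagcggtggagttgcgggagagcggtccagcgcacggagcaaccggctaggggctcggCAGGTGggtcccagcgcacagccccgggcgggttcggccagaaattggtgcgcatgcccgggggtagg
Epcam: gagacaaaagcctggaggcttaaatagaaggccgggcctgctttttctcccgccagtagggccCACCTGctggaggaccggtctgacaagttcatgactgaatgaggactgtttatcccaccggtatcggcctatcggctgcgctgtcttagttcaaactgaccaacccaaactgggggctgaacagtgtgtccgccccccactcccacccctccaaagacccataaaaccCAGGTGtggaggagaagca
Spint2: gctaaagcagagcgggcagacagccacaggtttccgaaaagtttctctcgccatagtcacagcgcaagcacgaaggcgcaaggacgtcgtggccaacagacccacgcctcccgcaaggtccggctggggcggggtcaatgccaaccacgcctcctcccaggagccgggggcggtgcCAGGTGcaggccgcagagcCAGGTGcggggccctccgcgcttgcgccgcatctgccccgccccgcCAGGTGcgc
Marveld2: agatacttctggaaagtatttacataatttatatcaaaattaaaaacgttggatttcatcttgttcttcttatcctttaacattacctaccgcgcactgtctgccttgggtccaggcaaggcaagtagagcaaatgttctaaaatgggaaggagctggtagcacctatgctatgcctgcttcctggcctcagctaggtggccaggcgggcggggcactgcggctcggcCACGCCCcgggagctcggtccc
The first base of each E-box lay 213 and 68 bases before the Ocln start, 187 and 19 before that of Epcam and 74, 55 and 9 before that of Spint2. GGGCGTG lay 22 bases before the Marveld2 start shown and 119 before the other Ocln start.

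Against uncultured cells, D libraries were higher for Dsp and Tjp1 and lower for Spint2, so 2 of the 10 genes rose and 1 fell in limma, with cell type as block. Over all 12539 genes tested, 15.3% were called, 9.16% higher and 6.17% lower. The median of all genes was 0.23 in this fit and 0.04 after median-of-ratios scaling, which moved the share of calls that were higher to 45.1%, from 59.7%. This comparison shares its D libraries with D against N. The filter let all 10 genes through, but only 6 of 10 would have passed on the uncultured libraries alone. Dsp and Tjp1 were not among these and passed through their D libraries, so their calls describe the values and are no independent support. Dsp differed by 2.98 ± 0.71 (limma adjusted p = 0.0209) and Tjp1 by 2.73 ± 0.54 (limma adjusted p = 0.0104), the uncultured libraries holding at most 0.587 FPKM of Tjp1. Spint2 stood at 4.48 to 109 FPKM in D, against 90.5, 231 and 237 in uncultured MP, ST-HSC and LT-HSC, a difference of -2.13 ± 0.51 (limma adjusted p = 0.0213). Both D libraries lay below the uncultured one in each cell type. Without LT-HSC none of the 3 calls held (limma adjusted p = 0.191 for Dsp, 0.0968 for Tjp1 and 0.0955 for Spint2), without ST-HSC the calls of Tjp1 and Spint2 were lost (limma adjusted p = 0.0528 and 0.0574), and without MP that of Spint2 was lost (limma adjusted p = 0.0585). The uncultured LT-HSC library is the one with high myeloid markers, and their part in these values was not tested.

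Of the 6 genes called against N, 4 (Perp, Ocln, Cldn3 and Epcam) were not called against uncultured cells. D and uncultured libraries of Epcam overlapped, the uncultured ones being at 12.3 FPKM in ST-HSC, 13.0 in LT-HSC and 0 in MP, and D differed by 0.61 ± 0.83 (limma adjusted p = 0.630). Ocln differed by 2.01 ± 0.76 (limma adjusted p = 0.0957; 3.28 and 0.0272 without ST-HSC) and Perp by 2.61 ± 0.88 (limma adjusted p = 0.0712). Cldn3, listed at 0 in the uncultured libraries, differed by 2.70 ± 1.12 (limma adjusted p = 0.125). Marveld2 differed by -2.14 ± 0.68 (limma adjusted p = 0.0576; 0.0474 after median-of-ratios scaling), with 1.41, 53.0 and 17.2 FPKM in uncultured MP, ST-HSC and LT-HSC.

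Culture without induction was compared with uncultured cells in the same way. The filter kept 6 of the 10 genes (Perp, Jup, Ocln, Marveld2, Epcam and Spint2), and 0 of them passed limma, with 1 at an unadjusted p under 0.05. Over all 12060 genes tested, 8.89% were called, 5.8% higher and 3.08% lower. The median of all genes was 0.17 in this fit and 0.00 after median-of-ratios scaling, where 51.2% of the calls were higher, against 65.3%. Spint2 had the smallest p, with a difference of -1.26 ± 0.44 (limma adjusted p = 0.1002), followed by Marveld2 at -1.32 ± 0.64 (limma adjusted p = 0.212) and Epcam at -1.39 ± 0.69 (limma adjusted p = 0.221). Values of Perp, Jup and Ocln were -0.22, -0.13 and -0.69.

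**Figure D3:**
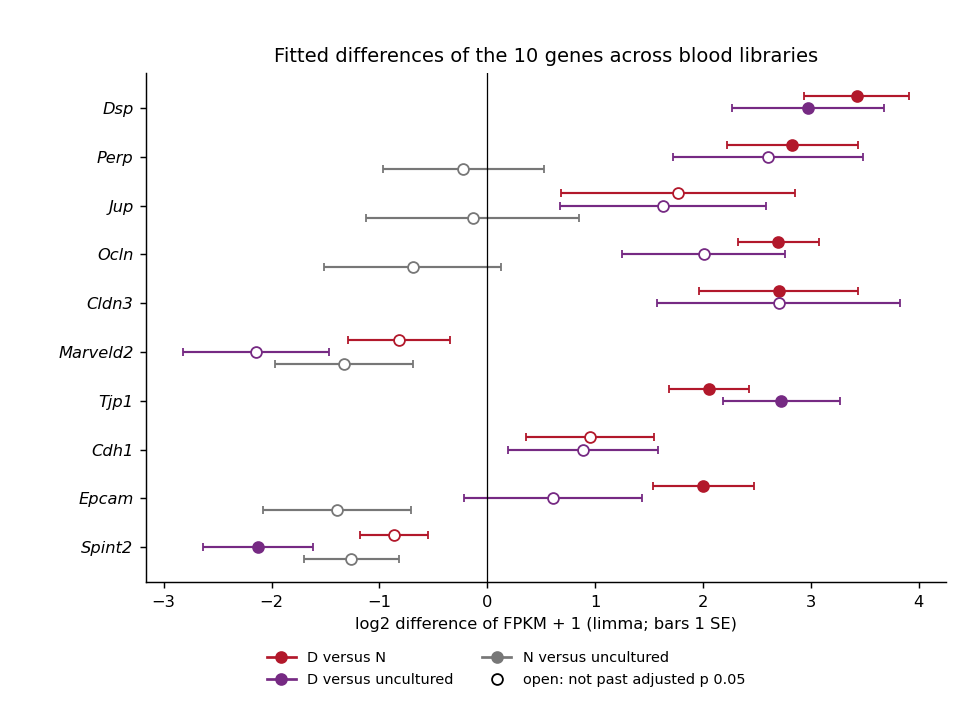
Fitted log2 differences of FPKM + 1 for the 10 genes in the blood libraries, with bars of 1 SE; filled points passed an adjusted p of 0.05 in limma. Dsp and Tjp1 are filled in both comparisons of D, and Spint2 and Marveld2 lie left of 0 in each comparison.

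MP was set against both stem cell types at matched condition, with all 15 blood libraries. Spint2 and Marveld2 were lower in MP and none of the 10 genes was higher, beside 0.297% called of 12453 genes tested in limma (0.257% lower and 0.0402% higher). Spint2 stood at 90.5 FPKM in uncultured MP, against 231 and 237 in ST-HSC and LT-HSC. In culture it was at 20.6 (2D), 57.3 (2N), 4.48 (4D) and 12.1 FPKM (4N) in MP, below both stem cell libraries in each condition. The difference was -2.21 ± 0.35 (limma adjusted p = 0.0270). Marveld2 was at 1.41 FPKM in uncultured MP and 0 in cultured MP, against 1.84 to 53.0 in the stem cell libraries. The difference of Marveld2 was -3.14 ± 0.53 (limma adjusted p = 0.0280). Marveld2 passed the filter through the stem cell libraries, so its call describes these values and is no independent support.

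These calls were not stable. Leaving out any of the 5 conditions lost the call of Spint2 (limma adjusted p = 0.0527 to 0.120), and leaving out 0, 2N, 2D or 4N lost that of Marveld2 (limma adjusted p = 0.0910 to 0.131), while the differences stayed between -2.55 and -1.95 for Spint2 and between -3.14 and -3.00 for Marveld2 in those fits. Neither was called with LT-HSC alone or ST-HSC alone as the stem cells. Epcam differed by -2.50 ± 0.54 without passing (limma adjusted p = 0.0793) and was listed at 0 in MP outside D. Perp was at -1.97 ± 0.69 (limma adjusted p = 0.234), and the other 6 genes lay between -0.65 and 0.65. Stem and progenitor markers summed to 127 FPKM in uncultured MP, against 1055 and 605 in ST-HSC and LT-HSC, and their part in the result was not tested.

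**Figure D4:**
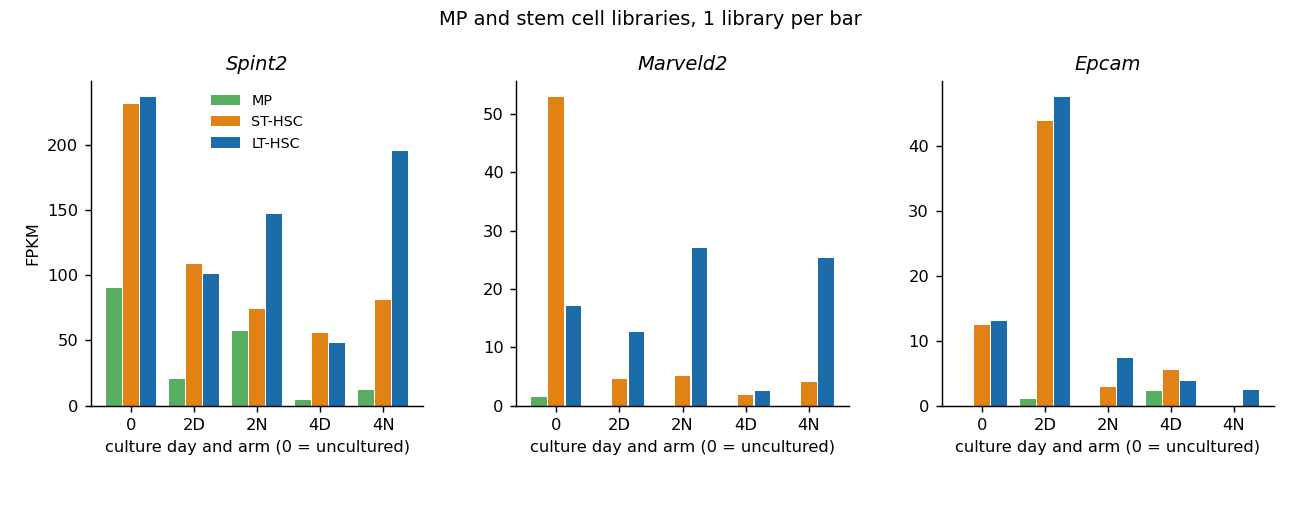
FPKM of Spint2, Marveld2 and Epcam in each blood library, 1 library per bar, by condition (0 = uncultured, then D and N of days 2 and 4) with MP left of ST-HSC and LT-HSC. The MP bar of Spint2 is the lowest in each condition, and Marveld2 is listed at 0 in cultured MP.

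Fibroblasts, which are mesenchymal cells, are given without a test because each condition was 1 library. Tjp1 stood at 19.99, 55.8 and 58.1 FPKM at day 0, 2D and 4D, 2.79 and 2.91 times day 0. Perp stood at 0.464, 9.83 and 22.2 FPKM, and Dsp at 0.334, 2.80 and 9.04. Cdh1 was listed at 0 at day 0 and stood at 1.34 and 2.47 FPKM at 2D and 4D. These 4 genes were at least 2-fold higher in FPKM + 1 at both days, as were 16.9% of the 12440 genes with a mean of 1 FPKM or more. Dsp, Perp and Cdh1 reached that mean through the induced libraries, and Ocln, Cldn3, Marveld2 and Epcam did not reach it. Jup went the other way, at 38.5, 14.5 and 16.9 FPKM, and was the only one of the 10 that was 2-fold lower at both days, beside 10.8% of genes. Spint2 stood at 0.887, 1.38 and 4.31 FPKM. Epcam was at 0.374 FPKM at 4D and 0 before, and Ocln, Cldn3 and Marveld2 were listed at 0 in all 3 libraries.

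**Figure D5:**
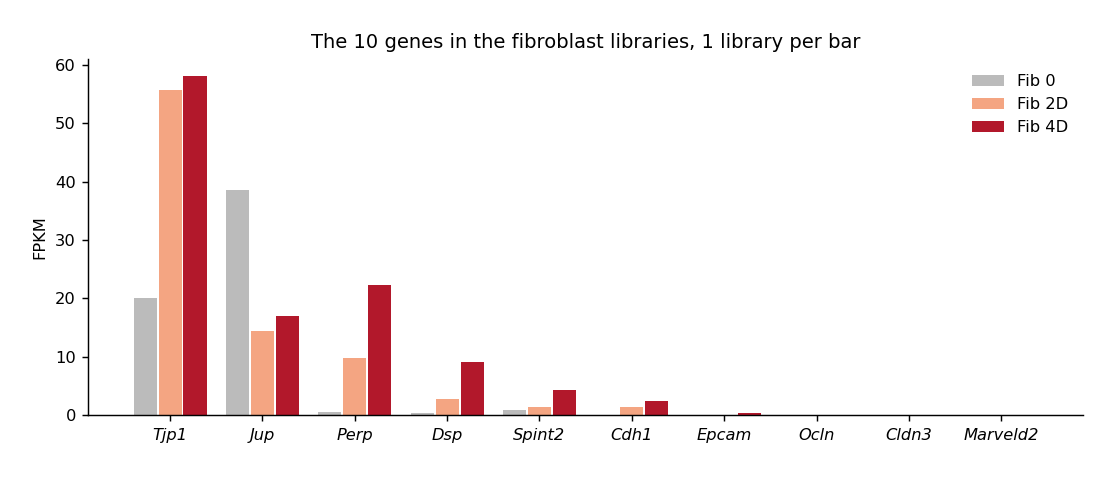
FPKM of the 10 genes in the fibroblast libraries at day 0, 2D and 4D, 1 library per bar. Tjp1, Perp, Dsp and Cdh1 are higher at both induced days and Jup is lower, while Ocln, Cldn3 and Marveld2 are listed at 0.

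Whether the change from uncultured to D differed between fibroblasts and blood cells was fitted as an interaction. With 1 fibroblast library per condition, that fit assumes that fibroblasts vary as the blood libraries do. In it 0.944% of 13235 genes passed limma (0.423% with a higher and 0.521% with a lower value in fibroblasts), and none of the 10 junction genes did. Without the fibroblast library of 2D, that of 4D, or MP, 0 genes passed, and without LT-HSC 2 did, against 125, and nothing is read from a gene not passing in it. Spint2 was higher at both induced days in fibroblasts and lower in 6 of 6 induced libraries in blood, a difference of 3.04 ± 1.07 (limma adjusted p = 0.257). Jup gave -2.88 ± 1.86 (limma adjusted p = 0.573). For Ocln the values were -2.01 ± 1.42 (limma adjusted p = 0.614), and for Cldn3 -2.70 ± 2.20 (limma adjusted p = 0.663). Ocln and Cldn3 were listed at 0 in every fibroblast library. Their values here are therefore the blood differences between D and uncultured cells with the sign turned, and show nothing about fibroblasts. Lineage and library method cannot be told apart in the levels.

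Other junction and epithelial genes were taken from 9 lists of 129 genes. Over all 12254 genes tested in D against N, 4.53% were higher and 4.44% lower. The lists were chosen with earlier results known, so their counts are descriptions. Some listed genes, among them Pard3, Cxadr, Grhl1, Cldn10 and Krt8, held at most 0.549 FPKM in N libraries. Those genes passed the filter through their D libraries, so the numbers tested also depend on D. In D against N, the tight junction partners had 4 of 13 tested genes higher and 0 lower (18 listed). Jam3, a junctional adhesion molecule, stood at 7.99 to 45.3 FPKM in D and 0 to 6.05 in N (log2 3.31, limma adjusted p = 0.0130). Pard3, a polarity scaffold, was at 0.522 to 22.4 FPKM in D and 0 in every N library, the virus receptor and junction protein Cxadr at 0.386 to 21.9 in D and at most 0.406 in N, and the polarity kinase Prkci at 8.61 to 17.6 in D, above every N library, with a median of 3.55 in N. Adherens junction partners had 5 of 8 tested higher and 0 lower (16 listed). The nectin Pvrl3 stood at 4.76 to 51.7 FPKM in D and 0 to 1.74 in N, and the nectin-binding Mllt4 (afadin) at 20.6 to 61.4 in D and 0.835 to 15.8 in N. Alpha-catenin (Ctnna1), which links cadherins to actin, was at 67.3 to 147 FPKM in D and 23.6 to 46.9 in N (1.48 ± 0.21, limma adjusted p = 0.00334), without overlap, and Pvrl2 at 1.68 to 9.81 in D and 0 to 2.12 in N.

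Desmosome partners had 1 of 4 tested higher and 0 lower (14 listed), plakophilin-2 (Pkp2) at 0 to 23.6 FPKM in D and 0 to 1.85 in N (limma adjusted p = 0.0381). Pkp4 stood at 15.6 to 44.6 FPKM in D and 3.28 to 25.6 in N without passing (1.32, limma adjusted p = 0.0904). Connexins, the channels of gap junctions, had 1 of 3 tested higher and 0 lower (12 listed), Gja1 at 19.2 to 52.7 FPKM in D and 1.61 to 21.8 in N. Of 4 claudins tested (18 listed), 0 passed: Cldn10 was at 0 to 132.7 FPKM in D and 0 in every N library (limma adjusted p = 0.0685), and Cldn15 at 0 to 6.30 in D and 0 to 36.3 in N (limma adjusted p = 0.118).

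The epithelial surface and protease genes had 1 of 9 tested higher and 1 lower (14 listed). The proteoglycan Sdc1 stood at 6.21 to 29.8 FPKM in D and 0 to 4.99 in N (2.47, limma adjusted p = 0.0289). Epithelial transcription and splicing factors had 2 of 3 tested higher (16 listed): Klf5 at 11.9 to 31.0 FPKM in D and 0 to 3.11 in N, and Grhl1, a grainyhead factor, at 1.36 to 21.5 in D and 0 to 0.549 in N (limma adjusted p = 0.0205). Keratins had 0 of 2 tested called (10 listed), Krt18 standing at 0.827 to 223 FPKM in D and 0 to 166 in N, and Krt8 at 0 to 15.8 in D and 0 in every N library. Of 6 tested repressors of epithelial genes (11 listed), 0 were called; Tcf3 was at 65.6 to 118.9 FPKM in D and 44.1 to 108.5 in N, and Tcf4 differed by 1.07 (limma adjusted p = 0.197). All 8 pluripotency markers were listed at 0 in N, and 7 of 8 in D.

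Against uncultured cells, where 9.16% of all genes tested were higher and 6.17% lower in D, 2 of 14 tested tight junction partners, 3 of 8 adherens junction partners, 1 of 4 connexins and 1 of 5 epithelial factors were higher, with 0 lower in each. Of the surface and protease genes, 1 of 8 was higher and 1 lower, and of the claudins 0 of 4 were higher and 1 lower. The desmosome partners, keratins and repressors had 0 called of 5, 3 and 5 tested. With so few genes per list, and 2 of 14 near the share over all genes, nothing is read from these counts.

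Among the genes whose profile over the 15 blood libraries was most like the mean of the 10 were Usp22, Dst, Aig1 and Mecom, with Pearson correlations of 0.935, 0.926, 0.925 and 0.912. For single called genes, the nearest profiles were those of Timp1 for Dsp (0.957), Slc12a2 for Tjp1 (0.955), Ttbk2 for Ocln (0.945), Mecom for Epcam (0.933), Elavl3 for Cldn3 (0.905) and Uba3 for Perp (0.896). These correlations are the highest over all genes with a mean of at least 1 FPKM and come from libraries that share the induction, so they are given as descriptions. Among the 10 genes themselves the highest were between Spint2 and Marveld2 (0.843) and between Tjp1 and Dsp (0.823), and the lowest between Spint2 and Cldn3 (-0.50).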

How the data were processed

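The authors deposited 1 table of FPKM. The submitters' processing notes name TopHat, Cufflinks and mm9, without versions; the annotation is not given. Values and tools together point to FPKM. Low values showed no common step between libraries, so whole reads were not recovered and depth-based intervals are not given. The 36818 entries were summed to 36655 symbols (158 on several entries). Listed symbols absent from the table were matched by Ensembl ID (3 genes).

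Genes averaging 1 FPKM or more in a fit's libraries were tested on log2(FPKM + 1) with limma 3.58.1 in R 4.3.3 (trend and robust options), two-sided, with Benjamini-Hochberg adjustment over all genes tested and a threshold of 0.05. D against N had a term for each of the 6 pairs; the comparisons with uncultured cells had cell type and MP against stem cells had condition as block. A fold change on this scale understates that of low genes. Alternatives added 0.1 or 5, changed the filter, scaling, block or variance model, or left libraries out; 2 that split off ST-HSC were added after the data were seen. The fits were tested on simulated data.

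The 10 genes, the partner and marker lists, the tests and the naming rule were chosen with earlier results of these data known. The rule names all 10 genes, up to 4 called genes per partner list by size of change (filled to 2 by level), and the genes with the most similar profile. Of the other listed genes, those named are markers. Some genes that the rule names are not reported here. Promoter sequences are from RefSeq (GRCm38.p6), matched by symbol for 8 of 10 genes. Python 3.11.15 (numpy 2.4.6, pandas 2.3.3) prepared the tables, and matplotlib 3.10.9 drew the plots.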

Additional observations from a re-analysis of the deposited data

Results flagged for a closer look

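Jup was flagged because its difference between D and N went one way at both days in LT-HSC and the other way at both days in ST-HSC and MP. The mean log2 difference between D and N over both days was -2.60 in LT-HSC, 3.01 in ST-HSC and 4.88 in MP. The value in LT-HSC was thus -5.60 relative to ST-HSC, and that in MP 7.48 relative to LT-HSC. These differences between cell types rest on 2 pairs each and were not tested one by one; MP against both stem cell types together gave 4.68 ± 1.83 (limma adjusted p = 0.546). Uncultured Jup levels were 0 FPKM in MP, 15.5 in ST-HSC and 0.592 in LT-HSC.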

How the results depend on the processing

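No called direction was reversed in 842 alternative values of the 66 gene results; 49 values changed sign, none of them past the threshold in either fit. Of 6 junction genes called higher in D than in N, 3 to 6 were called when the value added, the filter, the scaling, the block or the variance model changed (the 3 at a mean of at least 5 FPKM, where Ocln and Tjp1 were not tested and Cldn3 lost its call), 4 to 5 without any 1 pair, 1 at day 2 alone (Perp) and 0 at day 4 alone. Dsp, Ocln and Tjp1 kept their calls without each pair, although Dsp and Ocln passed the filter through their D libraries. With no replicate block for the pairs, 5 of the 6 were called and 1095 genes in all, against 1099. No replicate numbers are in the labels, so the pairs rest on cell type and day.

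Counts of all called genes moved by more than 1.5 times in these fits, and smaller fits have fewer samples; other causes were not tested. For D against N the count was 171 at day 2 alone, 169 at day 4 alone, 26 in ST-HSC pairs alone and 529 to 1042 without 1 pair (678 without LT-HSC day 2, 730 without LT-HSC day 4, 529 without MP day 2, 630 without MP day 4). For N against uncultured cells, 1072 became 636 with no filter, 420 without trend and robust options, 42 at day 2 alone, 86 at day 4 alone and 52 to 1194 without 1 cell type. For D against uncultured cells, 1922 became 532 at day 2 alone, 852 at day 4 alone and 361 to 1207 without 1 cell type. For MP against stem cells, 37 became 12 with 5 added, 13 with no filter, 13 without trend and robust options, 16 with LT-HSC alone, 16 with ST-HSC alone and 0 to 39 without 1 condition; its interaction with induction gave 0 to 1. For fibroblasts against blood, 125 became 60 with 0.1 added, 331 with 5 added, 555 with no filter, 56 at a mean of at least 5, 203 after quantile normalization, 208 without trend and robust options and 0 to 162 without 1 cell type or day. In fibroblasts alone, 2 of the 10 genes were 2-fold higher and 0 lower with 5 added.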
